A study of Mus musculus with 18 samples.

Results

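The genes of cholesterol synthesis and of its control by SREBP2 were examined in mouse liver after IL-1β. The list held 28 genes, chosen by symbol for their place in the pathway, with earlier results of these data known. A row for 27 of them stood among the 21018 genes found in at least 1 of the 3 count tables. Of these, 26 were present in the Pico, V4 and TruSeq tables alike, Npc1l1 had a row in the TruSeq table and was not analysed in the other kits, and Hmgcs1 was not analysed here. The livers came from male C57/B6J mice of 12 weeks. The IL-1β group was 3 mice (ILB.9579, ILB.9582 and ILB.9583) injected into the peritoneum with 20 µg/kg of IL-1β, and the control group was 3 mice (UNT.9574, UNT.9575 and UNT.9576) given saline, all without genetic change and all taken 4 hours later. RNA of whole liver from each of the 6 mice was made into a library with each kit, which gives 18 libraries. Pico is a stranded kit for total RNA, V4 an unstranded kit for polyadenylated RNA, and TruSeq a stranded kit for polyadenylated RNA, with 1.7 to 2.6 ng, 0.8 to 1.3 ng and 200 ng of RNA per library.

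Cholesterol is built from acetyl-CoA through mevalonate, the isoprenoid diphosphates, squalene and lanosterol, and the liver is a main site of this synthesis. When sterols are scarce in the endoplasmic reticulum, SCAP escorts SREBP2 to the Golgi, where it is cut and sent to the nucleus to activate the genes of the pathway. When sterols are plentiful, INSIG proteins hold SCAP and SREBP2 back. Hepatocytes answer IL-1β, an inflammatory cytokine, with acute-phase proteins.

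SREBP2 binds promoters together with general factors that recognise CCAAT boxes and GC boxes, so these motifs were looked for in the RefSeq promoters of the members (build GRCm38.p6, 250 bases before to 50 bases after a start site). Of the 28 genes, 24 had an entry, with Sc4mol under its newer symbol Msmo1. Fdps, Fdft1, Sqle and Stard4 had none. The letters CCAAT on either strand stood in a promoter of 22 of the 24 genes (91.7%), against 41.06% of the 27025 genes with an entry. The letters GGGCGG stood in 21 of 24 (87.5%), against 38.2%. The sterol element cores TCACCCCAC and TCACNCCAC, of which the second contains the first, were found in 1 member, Hmgcs1 (4.2%), against 0.61% and 1.44% of all genes. Genes with several start sites had several chances of a match. Mvd was called higher after IL-1β in every kit, Lbr higher in Pico and TruSeq, and Sc5d lower in every kit. Their promoters are shown as examples of both directions. They were chosen after the values were seen, among genes with 1 promoter entry. All lie on the minus strand, at chr8:122443373-122443672 for Mvd, chr1:181842352-181842651 for Lbr and chr9:42264251-42264550 for Sc5d. Capitals mark CCAAT and GGGCGG on either strand (ATTGG and CCGCCC where the match is on the other strand), and no match overlaps another.
Mvd: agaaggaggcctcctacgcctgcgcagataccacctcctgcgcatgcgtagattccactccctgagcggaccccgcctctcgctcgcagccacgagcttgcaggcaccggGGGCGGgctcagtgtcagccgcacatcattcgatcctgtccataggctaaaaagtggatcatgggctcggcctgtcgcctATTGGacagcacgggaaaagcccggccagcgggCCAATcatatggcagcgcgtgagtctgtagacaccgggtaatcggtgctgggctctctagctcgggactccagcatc
Lbr: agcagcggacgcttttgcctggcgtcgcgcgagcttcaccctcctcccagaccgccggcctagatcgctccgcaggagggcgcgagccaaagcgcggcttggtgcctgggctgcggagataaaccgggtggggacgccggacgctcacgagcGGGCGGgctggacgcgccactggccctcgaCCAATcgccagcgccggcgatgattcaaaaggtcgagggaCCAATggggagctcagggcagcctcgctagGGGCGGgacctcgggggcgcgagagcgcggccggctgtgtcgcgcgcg
Sc5d: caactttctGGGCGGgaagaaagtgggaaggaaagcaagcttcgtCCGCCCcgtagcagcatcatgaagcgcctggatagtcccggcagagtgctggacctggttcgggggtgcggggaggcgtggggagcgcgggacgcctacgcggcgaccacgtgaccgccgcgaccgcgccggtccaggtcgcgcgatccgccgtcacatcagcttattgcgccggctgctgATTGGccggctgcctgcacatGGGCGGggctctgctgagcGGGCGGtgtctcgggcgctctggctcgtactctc
The promoter of Mvd held 2 CCAAT and 1 GGGCGG, that of Lbr 2 and 2, and that of Sc5d 1 and 4. A GGGCGG of Lbr and one of Sc5d began after the start site, at bases 2 and 16. CCAAT stood in 22 and GGGCGG in 21 of the 24 genes, so almost any choice of members would hold both. The examples therefore cannot show whether the motifs are related to the direction of change.

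The deposited gene counts of a library summed to between 4024632 and 4134070 (Pico), 12013453 and 12352473 (V4) or 12348864 and 12858237 (TruSeq). Values below are in CPM, a gene's count divided by this sum and scaled to the same total in each library. The labels were checked on Saa1, an acute-phase gene, whose level rose by 6.43, 6.73 and 6.57 on the log2 scale in Pico, V4 and TruSeq (adjusted p of 5.33e-12, 2.09e-07 and 3.90e-07, limma-voom). The summed level of 5 hepatocyte markers, all detected, was 62337 to 68743 CPM after IL-1β and 84271 to 102123 CPM after saline in TruSeq, and was lower after IL-1β in every kit. Alb, albumin, made up most of it in TruSeq (49949 against 76517 CPM), and Tat, another of the 5, went the other way, with log2 fold changes of 1.14, 0.98 and 1.28 in Pico, V4 and TruSeq, called in each. The summed level of 6 neutrophil markers was 39.0 to 79.7 CPM against 1.56 to 2.85 CPM, that of 6 Kupffer cell markers 48.9 to 69.6 CPM against 96.4 to 160.9 CPM, that of 4 endothelial markers 48.9 to 68.5 CPM against 104 to 112 CPM, and that of 3 stellate cell markers 107 to 141 CPM against 183 to 211 CPM, all in TruSeq. Within these lists Lyve1 (endothelial, 0.94) and Marco (Kupffer cell, 1.30) were called higher in TruSeq, against the direction of their sums. Of 3 markers of steroid-making tissue, Star was at 1.45 to 2.50 CPM against 1.19 to 2.50 CPM and the other two were not analysed. The 3 cholangiocyte markers were at 3.79 to 4.91 CPM against 2.77 to 3.05 CPM, the 2 T cell markers at 0.161 to 0.486 CPM against 0.311 to 0.703 CPM and the 2 B cell markers at 0.322 to 0.483 CPM against 1.09 to 2.37 CPM. In bulk liver, fewer cells of a type and less RNA per cell cannot be told apart. The part of these shifts in the values below was not tested.

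After IL-1β, 13 of the 19 synthesis enzymes lay above their saline level in each kit with library totals. Of all genes tested, 8098 of 18108 did in Pico, 7284 of 18051 in V4 and 8106 of 19424 in TruSeq. Of the 4 sensing genes 2 did in each kit, and of the transport genes 1 of 3 in Pico, 0 of 3 in V4 and 1 of 4 in TruSeq. That 1 in TruSeq was Npc1l1, with at most 1 count per library, and the other transport genes were lower there. Of the 26 genes in all kits, 14 had a log2 fold change above 0 in every kit and 9 had one below 0 in every kit, with library totals. The same was not counted over all genes. With TMM factors, 15, 17 and 17 of the 19 enzymes were above 0 in Pico, V4 and TruSeq, beside 9178, 8607 and 9593 of all genes tested. A gene was called when the limma-voom test gave an adjusted p of at most 0.05 over all genes of the kit. In Pico, 7 of 26 were called higher and 3 lower, beside 6.78% and 10.8% of all 18108 genes tested. In V4, 4 of 26 were called higher and 2 lower, beside 3.6% and 7.41% of 18051 genes. In TruSeq, 7 of 27 were called higher and 6 lower, beside 12.3% and 21.8% of 19424 genes. The members called lower were thus near the share of all genes tested in each kit, and the members called higher were above it in Pico and V4 and, less so, in TruSeq. All 26 shared members averaged at least 20 counts. Among all genes averaging at least 20 counts, Pico called 1029 higher and 1683 lower of 9687. V4 called 561 and 1129 of 10528, and TruSeq 2065 and 3555 of 11529. Beside these genes, members were called lower at a smaller share in each kit and higher at a larger share. The direction of the calls depends on the scaling, since the median over all genes, on the log2 scale, was -0.12 with library totals and 0.02 with TMM factors in Pico, -0.22 and -0.06 for V4, -0.17 and -0.01 for TruSeq. TMM factors gave 9 members higher and 3 lower in Pico, beside 9.16% and 8.16% of all genes with the same factors. For V4 they gave 4 and 0, beside 4.79% and 4.84%, and for TruSeq 11 and 3, beside 16.7% and 16.1%.

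The 19 synthesis enzymes had medians of 0.44 (Pico), 0.37 (V4) and 0.42 (TruSeq) in log2 fold change with library totals. Pico called 7 of these 19 higher and 1 lower, V4 4 and 1, and TruSeq 6 and 1. In all, 4 enzymes were called higher in all 3 kits, namely Mvd, Fdps, Sqle and Dhcr7, and Sc5d was called lower in all 3. The share of all genes called the same way in all 3 kits was not counted, and the kits measured the same mice. In simulated counts a log2 change of 1 was mostly missed in V4, so the absence of a V4 call does not show an unchanged gene. The levels of the groups did not overlap for 9 members higher and 4 lower in Pico, where 11% and 18.6% of all genes did not overlap, each in counts and in CPM. In V4 these were 4 and 4 members, beside 8.66% and 17.9%. In TruSeq they were 8 and 6 members, beside 14.5% and 27.9%.

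**Figure D1:**
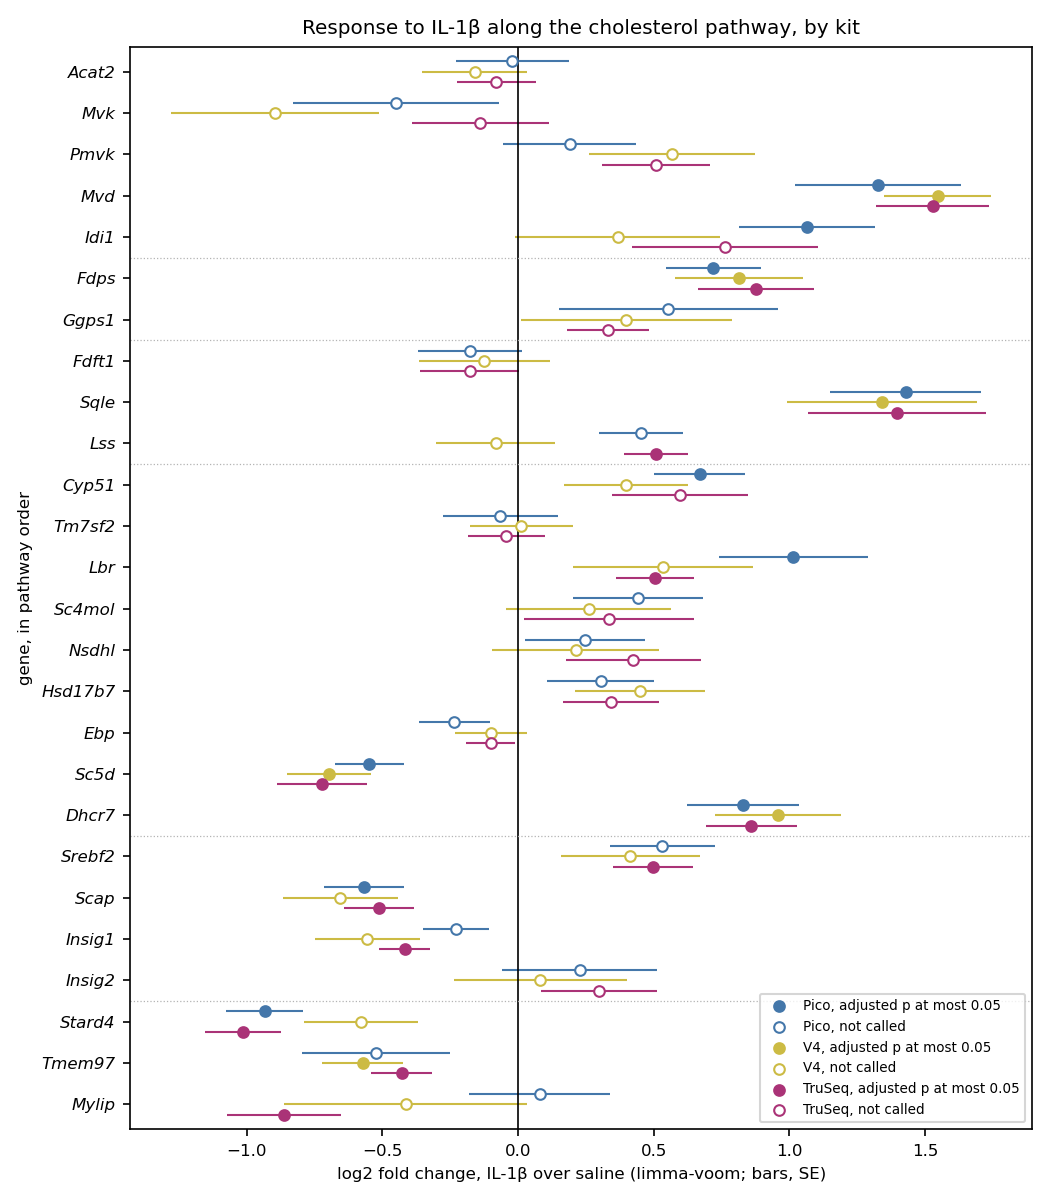
Each point is the log2 fold change of IL-1β over saline for 1 gene in 1 kit, with its standard error, and genes run from the start of the pathway (top) to sensing and transport (bottom). Filled points passed the test; Mvd, Fdps, Sqle and Dhcr7 lie right of 0 and Sc5d left of 0 with filled points in all 3 kits.

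Of the 5 measured genes of the mevalonate route, Mvd was called higher in all kits and Idi1 in Pico, while Acat2, Mvk and Pmvk passed the test in none. Mvd encodes the decarboxylase that makes isopentenyl diphosphate (chr8:124957496-124967322, mm9). In TruSeq its level was 41.0, 34.8 and 45.6 CPM in the IL-1β mice and 16.1, 9.53 and 17.6 CPM in the saline mice UNT.9574, UNT.9575 and UNT.9576. In V4 it was 68.6, 71.4 and 68.0 CPM against 27.6, 23.7 and 20.4 CPM, and in Pico 26.4, 17.4 and 24.5 CPM against 11.3, 6.55 and 9.43 CPM. Every IL-1β mouse was thus above every saline mouse in every kit. The log2 fold change of Mvd in Pico, V4 and TruSeq was 1.33 (SE 0.31), 1.55 (SE 0.20) and 1.53 (SE 0.21), with adjusted p of 0.00566, 0.000805 and 0.000476 in limma-voom, and Mvd was called in each of 12 settings of scaling, test, filter, depth and mice in every kit.

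Idi1, the isomerase of isopentenyl diphosphate, differed widely among the saline mice. Its level in TruSeq was 47.7, 44.3 and 42.8 CPM after IL-1β and 52.6, 15.1 and 23.3 CPM after saline. The IL-1β mice were close together, and saline mouse UNT.9574 lay above all of them. In Pico the levels were 69.9, 67.3 and 49.8 CPM against 46.8, 19.4 and 28.1 CPM, without overlap. Idi1 had a log2 fold change of 1.06 in Pico (SE 0.25, adjusted p = 0.00648), 0.37 in V4 (SE 0.38, adjusted p = 0.616) and 0.76 in TruSeq (SE 0.34, adjusted p = 0.121). For Pmvk, the second kinase of mevalonate, it was 0.19, 0.57 and 0.51, and Pmvk was called higher in TruSeq with TMM factors (adjusted p = 0.0264), edgeR (0.0196) and DESeq2 (0.00683) but not with library totals (0.0788). Acat2, which joins acetyl-CoA units, had values of -0.02, -0.16 and -0.08, and these turned positive with TMM factors in each kit. Acat2 also has a close paralog, so that reads may be shared. Mvk, the first kinase of mevalonate, had -0.45, -0.89 and -0.14, with the last at 0.02 under TMM factors.

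At the branch to isoprenoids, Fdps rose in all kits and Ggps1 passed the test in none with library totals. Fdps makes farnesyl diphosphate (chr3:88897514-88905881, mm9). In TruSeq its level was 131, 108 and 98.2 CPM after IL-1β and 67.9, 41.4 and 79.7 CPM after saline. In V4 it was 239, 234 and 174 CPM against 134, 82.8 and 162 CPM. In Pico it was 110.5, 109 and 80.0 CPM against 65.7, 48.1 and 68.0 CPM. The groups did not overlap in any kit, and mouse UNT.9575 was the lowest saline mouse each time. Its log2 fold change was 0.72 (SE 0.18), 0.81 (SE 0.24) and 0.88 (SE 0.21) in Pico, V4 and TruSeq, with adjusted p of 0.00831, 0.0494 and 0.011. Ggps1, which makes geranylgeranyl diphosphate for protein prenylation, was at 9.10, 8.42 and 8.22 CPM against 7.74, 6.72 and 6.07 CPM in TruSeq, with a log2 fold change of 0.33 (adjusted p = 0.129, and 0.0328 with TMM factors).

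The squalene steps split, with Sqle rising most, Lss called in TruSeq and Fdft1 in no kit. Sqle encodes squalene epoxidase, a rate-limiting step of the later pathway (chr15:59146632-59162747, mm9). In TruSeq its level was 161, 149.6 and 161 CPM after IL-1β and 96.5, 30.0 and 73.0 CPM after saline. In V4 it was 147, 128 and 124 CPM against 102, 26.7 and 52.6 CPM, and in Pico 121, 106 and 100.3 CPM against 60.3, 19.2 and 56.8 CPM. The groups were separate in every kit although the saline mice differed by 3.22-fold, 3.81-fold and 3.14-fold from lowest to highest. For Sqle the log2 fold change in Pico, V4 and TruSeq was 1.43 (SE 0.28), 1.34 (SE 0.35) and 1.40 (SE 0.33), with adjusted p of 0.00167, 0.0329 and 0.0092. Without mouse UNT.9575 the V4 value was 0.86, the lowest of its 12 settings. The lowest values of Sqle over the 12 settings in Pico and TruSeq were 0.89 and 0.90.

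Lss, which folds the epoxide into lanosterol, was at 108, 93.5 and 109.6 CPM against 80.6, 63.5 and 74.9 CPM in TruSeq, without overlap (log2 fold change 0.51, SE 0.12, adjusted p = 0.0082). In Pico its levels were 62.3, 62.6 and 63.9 CPM against 47.8, 43.7 and 46.4 CPM, also without overlap, with an adjusted p of 0.0532. In V4 they overlapped, at 37.4, 47.1 and 57.6 CPM against 57.9, 41.4 and 50.3 CPM, with a log2 fold change of -0.08 that was 0.08 with TMM factors. Lss shares 381 exon bases, 3.5% of its exon length, with a noncoding gene on the opposite strand, which V4 cannot separate. The part of this overlap in the V4 value was not tested. Fdft1, squalene synthase, had a log2 fold change of -0.18, -0.12 and -0.18 with adjusted p of 0.603, 0.774 and 0.519, and 26.9% of its exon length overlaps Ctsb on the opposite strand.

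**Figure D2:**
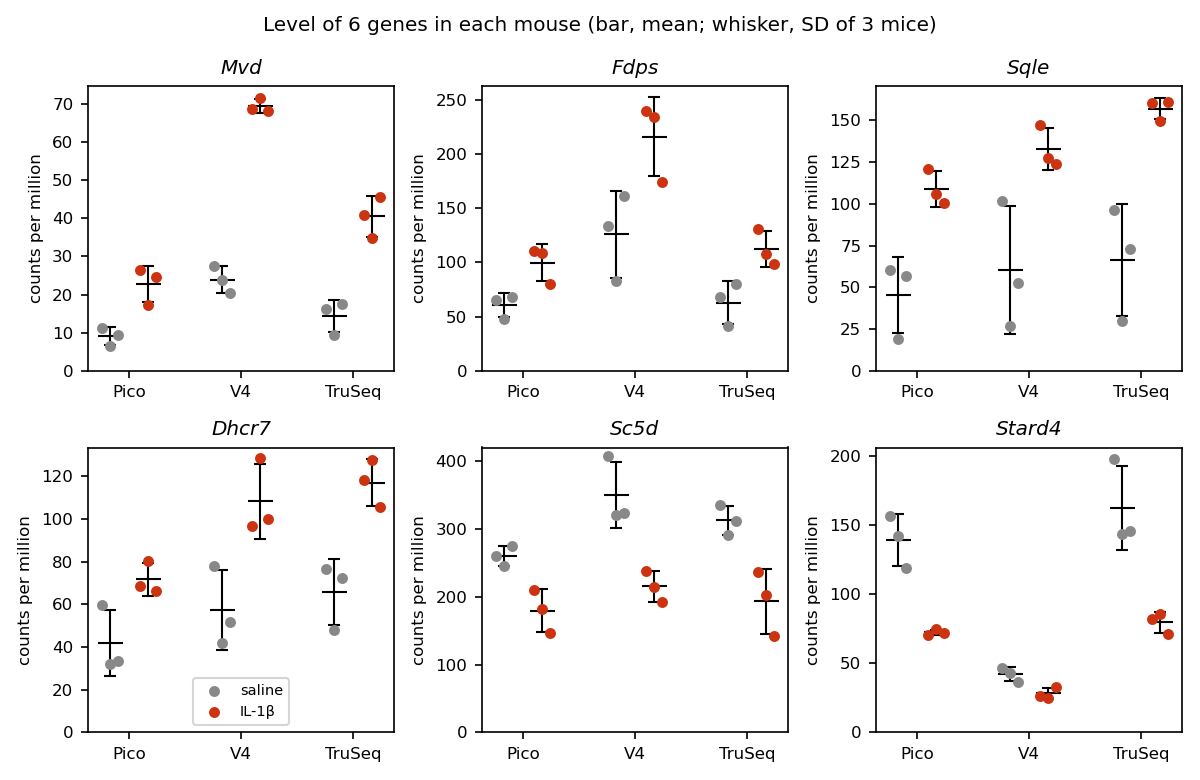
Level in CPM (vertical axis, from 0) of 6 genes in each mouse, by kit, with saline in grey, IL-1β in red, the mean as a bar and the SD of 3 mice as a whisker. The red and grey points do not overlap in any kit for any of the 6 genes; Mvd, Fdps, Sqle and Dhcr7 are higher and Sc5d and Stard4 lower after IL-1β.

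Among the 9 enzymes between lanosterol and cholesterol, Dhcr7 was called higher in all kits, Lbr in both stranded kits and Cyp51 in Pico. Sc5d was called lower in all kits. Lbr and Cyp51 also had log2 fold changes above 0 in the kits where they were not called. Dhcr7 encodes a reductase of the last step of one branch (chr7:151009050-151034315, mm9). Its level in TruSeq was 118, 128 and 105 CPM after IL-1β and 76.8, 48.0 and 72.2 CPM after saline. In V4 it was 96.5, 128 and 99.9 CPM against 78.2, 42.0 and 51.6 CPM, and in Pico 68.5, 80.5 and 66.1 CPM against 59.8, 32.3 and 33.6 CPM. No saline mouse reached an IL-1β mouse in any kit. Its log2 fold change was 0.83 (SE 0.21), 0.96 (SE 0.23) and 0.86 (SE 0.17), with adjusted p of 0.0099, 0.0238 and 0.00342.

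Sc5d, the desaturase that acts just before Dhcr7, went the other way (chr9:42062260-42072383, mm9). In TruSeq its level was 236, 202 and 142 CPM after IL-1β and 334, 291 and 311 CPM after saline. In V4 it was 238, 214 and 193 CPM against 406, 319.8 and 323 CPM, and in Pico 210.1, 182 and 146 CPM against 259, 245 and 275 CPM. All IL-1β mice were below all saline mice. The log2 fold change was -0.55 (SE 0.13), -0.70 (SE 0.15) and -0.72 (SE 0.16), with adjusted p of 0.00593, 0.0159 and 0.00773. With TMM factors it was -0.42, -0.53 and -0.56, and the V4 call was lost (adjusted p = 0.0624).

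Lbr, a sterol reductase that is also the lamin B receptor of the nuclear envelope, was at 17.8, 20.6 and 26.7 CPM against 10.3, 10.7 and 10.6 CPM in Pico (log2 fold change 1.01, SE 0.27, adjusted p = 0.0158). In TruSeq it was at 20.9, 22.2 and 16.3 CPM against 14.4, 13.5 and 13.6 CPM (0.50, SE 0.14, adjusted p = 0.0218). Its saline mice were the closest together of all enzymes in these 2 kits. In V4 Lbr was at 13.2, 12.3 and 8.38 CPM against 9.57, 5.87 and 7.93 CPM. Its log2 fold change there was 0.53 (SE 0.33, adjusted p = 0.373), close to that in TruSeq but not called. Tm7sf2, which catalyses the same reduction as Lbr, had log2 fold changes of -0.07, 0.01 and -0.04 and was called in no kit. It shares 15.3% of its exon length with a gene on the same strand.

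Cyp51, the demethylase of lanosterol, was at 157, 146 and 148 CPM against 132, 72.3 and 88.5 CPM in Pico (log2 fold change 0.67, SE 0.17, adjusted p = 0.0104). In TruSeq it was at 215, 197 and 189 CPM against 213, 89.1 and 122 CPM, with saline mouse UNT.9574 within the IL-1β range (0.60, adjusted p = 0.0984, and 0.039 with TMM factors). In V4 it was at 156, 160 and 133 CPM against 168, 85.8 and 101 CPM (0.40, SE 0.23, adjusted p = 0.326). Sc4mol, which oxidises the methyl groups that follow, was at 191, 186 and 219 CPM against 283, 93.4 and 147 CPM in TruSeq. There the IL-1β mice lay between the saline mice, with a log2 fold change of 0.34 and an adjusted p of 0.474. Nsdhl and Hsd17b7, which complete the removal of those groups, had log2 fold changes of 0.25 and 0.30 (Pico), 0.21 and 0.45 (V4) and 0.42 and 0.34 (TruSeq), and neither was called in any kit with library totals. Ebp, the sterol isomerase, was at 184, 176 and 182 CPM against 179, 203 and 200.3 CPM in TruSeq, with log2 fold changes of -0.24, -0.10 and -0.10. The last 2 turned positive with TMM factors.

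The sensing genes differed in direction. Srebf2, which encodes SREBP2, was called higher in TruSeq, Scap lower in Pico and TruSeq, Insig1 lower in TruSeq, and Insig2 in no kit. The level of Srebf2 in TruSeq was 55.8, 59.8 and 68.7 CPM after IL-1β and 50.7, 34.9 and 46.0 CPM after saline, without overlap. Its log2 fold change was 0.53, 0.41 and 0.50 in Pico, V4 and TruSeq, with adjusted p of 0.0714, 0.366 and 0.0261. With TMM factors the Pico value also passed, with an adjusted p of 0.0233.

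Scap, the escort of SREBP2 (chr9:110235792-110287450, mm9), was at 52.7, 55.5 and 58.3 CPM against 95.9, 69.9 and 73.9 CPM in TruSeq. In Pico it was at 63.8, 78.3 and 70.6 CPM against 112, 113 and 91.2 CPM, and in V4 at 35.3, 43.4 and 49.5 CPM against 80.8, 65.4 and 56.1 CPM. The IL-1β mice were below the saline mice in every kit. The change of Scap on the log2 scale was -0.57 (SE 0.15), -0.65 (SE 0.21) and -0.51 (SE 0.13), with adjusted p of 0.0126, 0.0729 and 0.0129, and with TMM factors of 0.044, 0.226 and 0.0576. In V4 the value may include reads of a gene that covers 18.9% of its exon length on the other strand.

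Insig1, an anchor of SCAP in the endoplasmic reticulum and itself a target of SREBP2, was at 271, 254 and 244 CPM against 320.1, 370.0 and 339 CPM in TruSeq. Its groups were separate there and overlapped in Pico and V4. The log2 fold change was -0.23, -0.56 and -0.42, with adjusted p of 0.238, 0.094 and 0.00683, and the TruSeq call was lost with TMM factors (adjusted p = 0.0575). Insig2, the other anchor, was at 119, 133 and 69.8 CPM against 95.4, 80.9 and 77.3 CPM in TruSeq, with mouse ILB.9583 the lowest of all 6 mice and an adjusted p of 0.333.

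Of the genes of sterol transport and uptake, Stard4 showed the largest decrease in Pico and TruSeq. It encodes a soluble carrier of cholesterol between membranes and is a target of SREBP2. Its level in TruSeq was 82.3, 86.1 and 71.0 CPM after IL-1β and 198, 144 and 146 CPM after saline. In Pico it was 70.9, 74.8 and 71.8 CPM against 157, 142 and 119 CPM, and in V4 26.7, 25.3 and 32.8 CPM against 46.7, 43.4 and 36.4 CPM. The groups were separate in all kits. The change of Stard4 on the log2 scale was -0.93 (SE 0.14), -0.58 (SE 0.21) and -1.01 (SE 0.14), with adjusted p of 0.00019, 0.108 and 0.000507. Stard4 was called in all of those 12 settings in Pico and TruSeq and in 0 of 12 in V4.

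Tmem97, a membrane protein that binds a lysosomal cholesterol exporter, was at 94.4, 102 and 104 CPM against 157, 142 and 147 CPM in V4 and at 48.1, 47.0 and 52.6 CPM against 70.4, 57.7 and 71.4 CPM in TruSeq. It was called lower in both (log2 fold change -0.57 and -0.43, adjusted p = 0.0321 and 0.0161) and in neither with TMM factors (adjusted p = 0.136 and 0.101). In Pico its log2 fold change was -0.52, with an adjusted p of 0.226. Mylip, a ubiquitin ligase that marks lipoprotein receptors for degradation, was at 4.03, 5.43 and 7.50 CPM against 10.8, 10.001 and 9.18 CPM in TruSeq (-0.86, SE 0.21, adjusted p = 0.0111). In Pico its groups overlapped, with a log2 fold change of 0.08. Npc1l1, which takes up sterols in the gut, had 1, 1 and 1 counts after IL-1β and 0, 0 and 1 after saline in TruSeq, which is below the floor of 3 counts, and no fold change is given. The floor covers counting error only.

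Levels of different genes were compared per kilobase of annotated exons within TruSeq. In saline mice the highest members were Sc5d at 134 ± 9.32 (SD, n = 3) and Insig1 at 129.6 ± 9.52 (SD, n = 3) CPM per kilobase, which do not differ beyond their spread. Ebp followed at 84.0 ± 5.62, Fdps at 51.1 ± 15.9 and Tmem97 at 48.4 ± 5.54, the last 2 within their spread of each other. The lowest enzymes were Ggps1 at 2.86 ± 0.354, Lbr at 3.90 ± 0.134 and Mvk at 4.10 ± 1.56, the last 2 again within their spread. Sqle, at 11.99 ± 6.08, and Mvd, at 8.18 ± 2.43, were in the lower part of the order after saline. After IL-1β they stood at 28.3 ± 1.16 and 23.0 ± 3.08. Insig1 at 96.9 ± 5.18, Fdps at 91.1 ± 13.6 and Sc5d at 83.0 ± 20.5 then lay within their spread of each other.

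**Figure D3:**
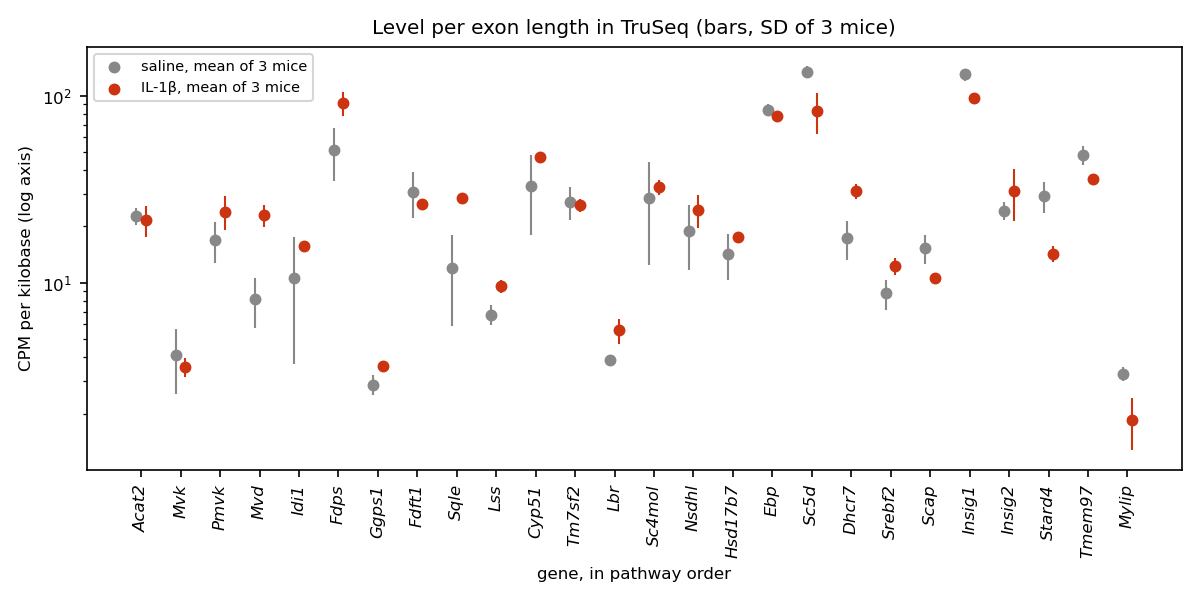
Mean level of 26 genes in TruSeq per exon length (log axis, CPM per kilobase) for saline in grey and IL-1β in red, with bars for the SD of 3 mice. Sc5d and Insig1 are highest after saline, at 134 and 129.6, and the saline bars of Idi1, Sqle, Cyp51 and Sc4mol are wide.

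The synthesis enzymes differed among the saline mice in a shared order, which was noticed after the values were seen and is given without a test. Mouse UNT.9575 was the lowest and mouse UNT.9574 the highest of the saline mice in all 3 kits for 8 of the 19 enzymes (Idi1, Fdft1, Sqle, Lss, Cyp51, Sc4mol, Nsdhl and Dhcr7). The same held for 84 of the 8960 genes that averaged 20 counts or more in each kit (0.94%). Mouse UNT.9575 was lowest in all 3 kits for 13 of the 19 enzymes, among them also Pmvk, Fdps, Tm7sf2, Hsd17b7 and Sc5d, and for 390 of the 8960 genes (4.35%). Srebf2 was the only sensing or transport gene with mouse UNT.9575 lowest in all kits. Mvd was not among them, since in V4 its lowest saline mouse was UNT.9576.

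The median enzyme level relative to the saline mean of the kit was 1.13-fold in mouse UNT.9574, 0.717-fold in mouse UNT.9575 and 1.03-fold in mouse UNT.9576 in TruSeq. In Pico the values were 1.24, 0.777 and 1.01, and in V4 1.25, 0.726 and 1.01. In the IL-1β mice ILB.9579, ILB.9582 and ILB.9583 the median was 1.48-fold, 1.28-fold and 1.18-fold in TruSeq, in Pico libraries 1.33, 1.26 and 1.32, in V4 libraries 1.16, 1.22 and 1.08. On this measure saline mouse UNT.9574 lay below all IL-1β mice in Pico and TruSeq and above all of them in V4. The hepatocyte marker sum of the saline mice in TruSeq was 84271 CPM in mouse UNT.9574, 96622 in mouse UNT.9575 and 102123 in mouse UNT.9576, so its order was not that of the enzymes. The neutrophil marker sum was highest in mouse UNT.9574 in each kit, as the enzyme median was, with 2.85, 1.56 and 1.79 CPM in TruSeq, 4.25, 2.07 and 2.27 CPM in V4 and 1.72, 0.243 and 0.242 CPM in Pico. The Pico sums of UNT.9575 and UNT.9576 were below the floor of 3 counts, which is 0.73 CPM there. Saa1 was lowest in mouse UNT.9575 in all kits, with 1221, 566 and 1229 counts in TruSeq, 1177, 525 and 1745 in V4 and 93, 52 and 106 in Pico. Their part in the order of the enzymes was not tested. The RNA of each mouse was shared between kits, so the 3 kits repeat the measurement of 1 animal and are not further animals.

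The enzymes were also more even among the IL-1β mice. Their median SD on the log2 scale was 0.36 after saline and 0.26 after IL-1β for Pico libraries, 0.49 and 0.17 for V4, 0.41 and 0.13 for TruSeq. Over all genes averaging 20 counts or more it was 0.24 and 0.21, 0.31 and 0.28, and 0.15 and 0.15. In TruSeq, 6 of 19 enzymes differed by more than 2-fold between the lowest and highest saline mouse, and 0 of 19 between IL-1β mice, beside 4.35% and 5.12% of all those genes. For V4 these were 8 and 0 of 19, beside 26.66% and 24.72%, and for Pico 4 and 1, beside 13.87% and 11.03%.

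**Figure D4:**
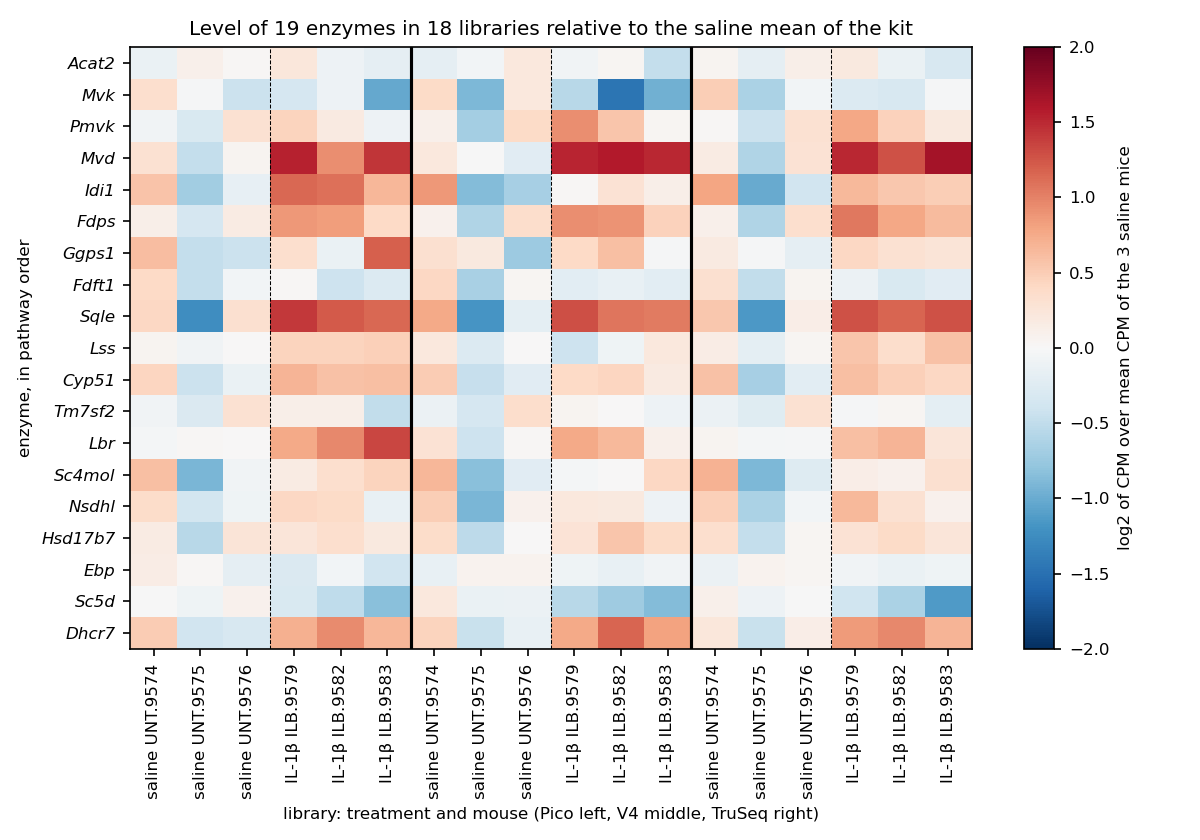
Colour gives the log2 level of 19 enzymes (vertical, in pathway order) in each of 18 libraries (horizontal) relative to the mean of the 3 saline mice of the same kit, from blue (lower) to red (higher). Saline mouse UNT.9575 is blue for most enzymes in each kit, the IL-1β mice are red for Mvd, Fdps, Sqle and Dhcr7, and they are blue for Sc5d.

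Many calls were lost when 1 mouse was left out and the fit repeated. Mvd in every kit, and Stard4, Dhcr7, Lss and Insig1 in TruSeq, stayed called whichever mouse was left out, as did Stard4 in Pico. The V4 calls of Sqle and Tmem97 were each lost without any mouse but 1, UNT.9574 for Sqle and UNT.9576 for Tmem97, and so was that of Fdps except without UNT.9576 (adjusted p up to 0.115, 0.109 and 0.179). Fdps was also lost in Pico without UNT.9575, ILB.9579 or ILB.9582, with an adjusted p of 0.0628 to 0.0926, and in TruSeq without UNT.9574, ILB.9579 or ILB.9582, with 0.0503 to 0.0652. Sqle was lost in Pico without ILB.9582 (0.0553) and in TruSeq without ILB.9582 or ILB.9583 (0.051 and 0.0524).

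Dhcr7 was lost in Pico without UNT.9575, UNT.9576, ILB.9579 or ILB.9582 (0.0602 to 0.11) and in V4 without UNT.9575, UNT.9576, ILB.9582 or ILB.9583 (0.0717 to 0.116). Sc5d was lost in Pico without ILB.9582 or ILB.9583 (0.062 and 0.0508), in V4 without UNT.9574, ILB.9582 or ILB.9583 (0.063 to 0.0801) and in TruSeq without UNT.9574 (0.0601). Idi1 was lost in Pico without any mouse but UNT.9574 and ILB.9583 (up to 0.095), Cyp51 without any but UNT.9574 (up to 0.0914), and Lbr without any but UNT.9575 and ILB.9579 (up to 0.0686). In TruSeq, Lbr was lost without any mouse but ILB.9583 (up to 0.081), Srebf2 without any but UNT.9574 and ILB.9579 (up to 0.104), Tmem97 without any but UNT.9575 and ILB.9583 (up to 0.0661), Scap without ILB.9579 or ILB.9582 (up to 0.0598) and Mylip without UNT.9574 or ILB.9582 (up to 0.0585). Scap in Pico was lost without UNT.9574, UNT.9575, ILB.9579 or ILB.9583 (up to 0.0844).

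Some genes not called with all mice in a kit were called there without 1 mouse. Without UNT.9574, the saline mouse with the highest median enzyme level, Idi1, Cyp51 and Sc4mol were called higher in TruSeq (adjusted p = 0.00596, 0.00766 and 0.0356) and Sc4mol in Pico (0.0445). Without UNT.9575, the saline mouse with the lowest median enzyme level, Fdft1 was called lower in TruSeq (0.0449) and Mvk in V4 (0.0498). Without ILB.9583, Insig2 was called higher in TruSeq (0.0119), and without UNT.9576, Scap and Insig1 were called lower in V4 (0.0438 and 0.0418).

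Differences in response between kits were tested by the interaction term of kit with treatment. No member passed it, and neither did any other gene in limma-voom (0% of 17207 genes between Pico and TruSeq, 0% of 17147 between V4 and TruSeq and 0% of 16395 between Pico and V4). At an unadjusted p under 0.05 there were 945, 1090 and 900 genes, and DESeq2 called 4, 62 and 14 genes, none of them a member. In simulated counts with a true log2 difference of 1 in 200 genes, the interaction test recovered 29.5%, 0% and 2% of them. At a difference of 2 it recovered 90%, 82% and 57.5%. Both are in the order Pico and TruSeq, V4 and TruSeq, Pico and V4. The absence of calls therefore does not show that the kits responded equally, since a difference of 1 was mostly missed. For Mvd the difference in log2 response of Pico minus TruSeq was -0.20 (95% interval from -1.05 to 0.65), and for Sqle it was 0.03 (from -1.04 to 1.10). For Stard4, called in TruSeq and not in V4, the difference of V4 minus TruSeq was 0.44 (from -0.08 to 0.95, adjusted p = 0.868). Of the 78 member tests in this fit, which did not pair the libraries of a mouse, 2 had an unadjusted p under 0.05. For Mylip the response was 0.94 higher in Pico than in TruSeq (SE 0.34, adjusted p = 0.9), and for Lss it was -0.59 in V4 minus TruSeq (SE 0.24, adjusted p = 0.683). With the mouse as a replicate block, 1, 2 and 2 members had an unadjusted p under 0.05, and none was called. These are the counts for Pico and TruSeq, V4 and TruSeq, and Pico and V4. The SE of Pico minus TruSeq was then 0.14 for Sqle and 0.25 for Mvd, beside 0.51 and 0.40 without the block. For Lbr it was 0.31 beside 0.30, so the block did not narrow every interval. The intervals above are without the block. RNA input differs between all kits, and read length and sequencer between TruSeq and the other kits, which cannot be told apart from the kit.

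Genes around the pathway were counted from 3 further lists. Of 11 genes for SREBP processing and degradation at the endoplasmic reticulum, Pico called 1 higher and 2 lower (all genes, 6.78% and 10.8%), V4 2 and 4 (3.6% and 7.41%), and TruSeq 4 and 5 (12.3% and 21.8%). With TMM factors these were 2 and 1, 2 and 0, and 4 and 3. The shares of all genes were then 9.16% and 8.16%, 4.79% and 4.84%, and 16.7% and 16.1%. Erlin1, a protein of the endoplasmic reticulum membrane that binds cholesterol, fell by 1.10 on the log2 scale in TruSeq (64.5 to 29.9 CPM, adjusted p = 0.000221). Syvn1, a ubiquitin ligase of the degradation machinery, rose by 2.72 (126 to 772 CPM, adjusted p = 0.000274).

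Of 12 genes that use isoprenoids, 0 were called in Pico and V4 and 2 were called higher and 3 lower in TruSeq, near the 12.3% and 21.8% of all genes. With TMM factors Pico called 1 higher (all genes, 9.16%), V4 0 (4.79% higher, 4.84% lower), and TruSeq 4 higher and 2 lower (16.7% and 16.1%). Those with the smallest p there were Rabggta (-0.85, adjusted p = 0.000949) and Rabggtb (0.48, adjusted p = 0.0129), the subunits of the enzyme that prenylates Rab proteins, and Dhdds (0.85, adjusted p = 0.00233), which makes the dolichol chain. The 2 subunits thus moved in opposite directions. Of 12 genes for LXR, storage and efflux, Pico called 1 higher and 6 lower (all genes, 6.78% and 10.8%). V4 called 1 and 3 (3.6% and 7.41%), and TruSeq 2 and 7 (12.3% and 21.8%). With TMM factors these were 1 and 4 (9.16% and 8.16%), 2 and 3 (4.79% and 4.84%), and 3 and 5 (16.7% and 16.1%). The cholesterol exporter Abca1 rose by 1.52 in TruSeq (237 to 690 CPM, adjusted p = 0.000127), while Abcg8, which exports sterols into bile, fell by 1.66 (90.8 to 28.6 CPM, adjusted p = 2.08e-05) and Lpcat3, an enzyme of phospholipid remodelling, fell by 1.46 (86.3 to 31.2 CPM, adjusted p = 5.78e-05). All 3 of these were called in the same direction in Pico and V4.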

How the data were processed

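The authors aligned the reads of each library to mm9 with GSNAP, took out ribosomal reads and resampled the reads with their PORT pipeline. The resulting totals were close within a kit but lower in Pico than in V4 and TruSeq. Counts of whole reads per gene were deposited in 1 table per kit (sense strand for Pico and TruSeq, both strands together for V4). The Pico preparation was run more than once in the study, and the labels do not say which run the table holds. Each table was normalized by itself, so treatments were compared within a kit.

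Listed genes were taken by symbol. The members, lists and motifs were chosen with earlier results of these data known. All members may be named, and from each of the 3 further lists the 3 genes with the smallest p in TruSeq were named, except 1 that is not reported here. Every kit was fitted with limma-voom (limma 3.58.1, R 4.3.3) on library totals over genes with at least 1 count, with Benjamini-Hochberg adjustment over all genes of the kit, and the kits were compared by an interaction over 12 libraries. A p-value here rests on 3 mice per treatment. Levels per length used GENCODE exons of mm9. Promoters were those of RefSeq. Python 3.11.15 and pandas 2.3.3 made the summaries.

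Alternatives were voom with TMM factors, edgeR 4.0.16 quasi-likelihood, DESeq2 1.42.0, a minimum of 10 counts in 3 libraries, thinning to equal depth (5 draws) and leaving out each mouse. The same mouse entered all kits, which pairs the libraries. Deviations of a mouse from its group mean correlated by 0.18 to 0.418 between Pico and TruSeq, 0.0711 to 0.224 between Pico and V4 and 0.166 to 0.416 between V4 and TruSeq. Simulated counts with known changes were used to check the fitting steps. With a true log2 change of 1 in 200 genes, the test of IL-1β against saline found 93% of them for TruSeq. For Pico it found 46.5%, and for V4 only 2.5%, with 28.6% of the V4 calls false. At a change of 2 it found 100% for TruSeq, 94.5% for Pico and 84% for V4. A gene not called in V4 or Pico may thus have changed by 1 and been missed.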

Additional observations from a re-analysis of the deposited data

How the results depend on the processing

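Over all alternatives within a kit, 702 of 868 member values kept their direction and their side of the threshold, 85 were no longer called and 30 were newly called. In the other 51 the sign changed, each where neither setting called the gene. For members called higher, edgeR gave 11 in Pico, beside 1819 of all genes (1228 with library totals). TMM factors and DESeq2 each gave 11 in TruSeq, beside 3241 and 2973 of all genes (2382 with library totals). For members called lower, V4 had 0 with TMM factors, 0 with edgeR and 1 with DESeq2. Beside them were 874, 1002 and 1209 of all genes (1337 with library totals). TruSeq had 3 members lower with TMM factors, beside 3127 of all genes (4232 with library totals). Over all genes, DESeq2 also gave 1127 higher in V4 and 2776 lower in TruSeq.

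Leaving out each mouse in turn gave 1 to 7 members higher and 1 to 3 lower in Pico, 1 to 3 and 0 to 4 in V4, and 3 to 8 and 3 to 7 in TruSeq. The lowest counts of members higher, 1, 1 and 3, came without mouse ILB.9582. In V4, leaving out UNT.9575 or ILB.9583 also gave 1. In V4 no member was called lower without UNT.9574, ILB.9582 or ILB.9583, and 4 were without UNT.9576. Over all genes the ranges were 741 to 971 higher and 1024 to 1632 lower in Pico, 341 to 589 and 567 to 1504 in V4, and 1809 to 2166 and 3239 to 3585 in TruSeq.

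In the tests between kits, DESeq2 called 4, 62 and 14 genes (Pico and TruSeq, V4 and TruSeq, Pico and V4). With the mouse as a replicate block 1, 0 and 0 genes were called and no member. Leaving out each mouse gave 0 to 0, 0 to 57 and 0 to 39 genes, the highest without mouse UNT.9576. Counts per library were lowest in Pico.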
